A study of Homo sapiens with 16 samples.

Results

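AP-1 and immediate early transcription factors were followed as 10 genes, selected by symbol in the gene-level count and CPM tables of an RNA-seq series: FOS, FOSB, FOSL1 and FOSL2, which encode the FOS family, JUN, JUNB and JUND, which encode the JUN family, and EGR1, ATF3 and IER2. All 10 were among the 27037 genes of the table and all 10 passed the filter on low counts that left 15415 genes for testing. The cells were SK-N-BE(2)C, a human MYCN-amplified neuroblastoma line of adrenergic identity, and the study asked how palbociclib and retinoic acid, singly and together, alter expression as the cells leave the cell cycle and differentiate. The 4 groups of 4 samples received DMSO, the solvent of both agents, 10 µM all-trans retinoic acid (RA), a ligand of nuclear retinoic acid receptors, 1 µM palbociclib (PB), which blocks the kinases CDK4 and CDK6 at the entry to S phase, or PB and RA together at those doses (PB+RA). RNA was taken after 5 days of treatment from this single line, and all groups were grown in the same serum-containing medium.

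AP-1 is a dimer of basic leucine zipper proteins. FOS family proteins must pair with a partner, usually of the JUN family, whereas JUN proteins can also pair with each other or with ATF proteins, and the composition of the dimer sets how strongly it activates its targets. In unstimulated cells most of these genes are transcribed at a low rate, and growth factors, depolarisation or stress raise them within minutes through serum response factor and CREB, after which the short-lived transcripts decay. JUND is the member that is commonly high in resting cells. EGR1 is a zinc finger factor, ATF3 a stress-induced zipper protein that often acts as a repressor, and IER2 a small nuclear protein of the early response. The samples describe levels after days of treatment, and the time between the last change of medium and lysis was not given in the sources used here.

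Total counts per sample ran from 19515779 to 31620821. In every group, replicates 1 and 2 were alike and replicates 3 and 4 were alike, with a chi-square per degree of freedom over genes of 3.11 to 9.66 in the 8 pairs within these sets and 12.5 to 31.1 in the 16 pairs across them. The labels do not say what sets them apart. As a sum, the 8 marker genes of adrenergic neuroblastoma were high in every group. The sum was 2330 to 2621 CPM (counts scaled to the same total in every sample) in DMSO and up to 3698 CPM in PB+RA. None of the 8 was at 0, and PHOX2A was the most abundant, at a mean of 881 CPM in DMSO and 1176 CPM in PB+RA. Single adrenergic markers went both ways against DMSO. With PB 3 were called higher and 1 lower (beside 16.9% and 11.3% of tested genes). With RA it was 2 and 2 (10.8% and 2.54%), and with PB+RA 2 and 1 (24% and 17.9%). The 7 measured markers of the mesenchymal neuroblastoma state summed to 335 to 462 CPM in DMSO and 809 to 1227 CPM in RA. They summed to 331 to 495 CPM in PB and 600 to 947 CPM in PB+RA. This sum moved with FN1 (fibronectin), the most abundant, at means of 175, 733, 174 and 519 CPM in DMSO, RA, PB and PB+RA. It hid changes of other markers, since with PB 1 of the 7 was called higher and 4 lower. Schwann cell markers summed to 14.5 to 19.1 CPM in DMSO, 18.5 to 22.3 in RA, 27.5 to 34.1 in PB and 30.1 to 34.5 in PB+RA (2 of 2 tested were called higher with PB and with PB+RA, beside 16.9% and 24% of all tested genes), and the part of this in the values of JUN, JUNB and JUND was not tested. The 3 fibroblast markers summed to 34.4 to 86.1 CPM in DMSO, 20.1 to 75.6 in RA, 64.6 to 109 in PB and 18.4 to 54.1 in PB+RA. Of these 3, 1 was called higher and 0 lower with PB, and 1 higher and 1 lower with RA and with PB+RA. The shares of all tested genes are those given for the adrenergic markers. Endothelial markers summed to at most 1.74 CPM and the leukocyte gene PTPRC to at most 0.285 CPM. In bulk RNA, fewer cells of a type and less RNA per cell cannot be told apart.

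The sequences just upstream of the 5 genes that rose with PB+RA are given because transcription of immediate early genes is classically driven from short elements near the start site. Each run is the 250 bases before the RefSeq start in GRCh38.p14, read 5′ to 3′ on the gene's strand: FOS at chr14:75278578-75278827 (plus strand), FOSB at chr19:45467746-45467995 (plus), JUN at chr1:58784048-58784297 (minus), JUNB at chr19:12791236-12791485 (plus) and EGR1 at chr5:138465229-138465478 (plus). Capitals mark matches, on either strand, to TGANTCA (the AP-1 site), TGACGTCA (the cyclic AMP response element), its shortened form TGACGT, the JUN-type variant TGACATCA, the CArG box bound by serum response factor, GCGNGGGCG (an EGR site) and TTTNGCGC (an E2F-type site).
FOS: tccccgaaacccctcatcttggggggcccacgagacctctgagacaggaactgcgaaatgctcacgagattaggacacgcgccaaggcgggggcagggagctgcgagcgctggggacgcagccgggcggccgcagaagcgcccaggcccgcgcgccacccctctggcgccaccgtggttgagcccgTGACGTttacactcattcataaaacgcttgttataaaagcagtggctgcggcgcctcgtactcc
FOSB: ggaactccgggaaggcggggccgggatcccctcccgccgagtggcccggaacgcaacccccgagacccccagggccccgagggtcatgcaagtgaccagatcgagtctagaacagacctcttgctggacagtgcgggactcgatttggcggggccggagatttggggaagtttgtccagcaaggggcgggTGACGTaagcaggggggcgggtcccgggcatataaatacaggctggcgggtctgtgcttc
JUN: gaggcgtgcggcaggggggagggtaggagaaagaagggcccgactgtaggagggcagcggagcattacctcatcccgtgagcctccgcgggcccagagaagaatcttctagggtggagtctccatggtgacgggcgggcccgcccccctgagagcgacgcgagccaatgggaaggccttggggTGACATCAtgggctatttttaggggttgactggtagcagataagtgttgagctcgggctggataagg
JUNB: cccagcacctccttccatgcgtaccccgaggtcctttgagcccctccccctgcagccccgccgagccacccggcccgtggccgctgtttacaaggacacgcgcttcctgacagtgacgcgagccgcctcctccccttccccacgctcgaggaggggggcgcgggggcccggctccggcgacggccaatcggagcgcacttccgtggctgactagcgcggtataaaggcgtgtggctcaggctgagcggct
EGR1: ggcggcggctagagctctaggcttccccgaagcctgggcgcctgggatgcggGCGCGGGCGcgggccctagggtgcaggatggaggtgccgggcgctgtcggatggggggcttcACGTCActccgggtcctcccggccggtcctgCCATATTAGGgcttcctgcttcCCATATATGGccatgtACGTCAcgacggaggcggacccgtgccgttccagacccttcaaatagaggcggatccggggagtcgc
The window of EGR1 held the most matches of the 5, with 2 CArG boxes at -105 to -96 and -83 to -74 from the start, 2 copies of TGACGT on the opposite strand at -136 to -131 and -67 to -62, and 1 EGR site at -198 to -190. FOS and FOSB each held a single TGACGT, at -64 to -59 and at -60 to -55. JUN held TGACATCA at -67 to -60, and the JUNB window held none of these letters. Over 35116 windows of the same length, TGACGT was found in 7.1%, TGACGTCA (which contains it) in 1.65%, TGACATCA in 2.37%, the CArG box in 1.16%, TGANTCA in 6.57%, GCGNGGGCG in 8.41% and TTTNGCGC in 1.51%. Outside the printed windows, FOSL2 held TGACGT, JUND held TGACGTCA at -200 to -193 and a further TGACGT, ATF3 held TGACATCA at -123 to -116 in 1 of its 2 windows, and IER2 held none. A match is a description of the letters. Sequence further upstream than 250 bases was not searched, so a motif missing from a window may lie beyond it. FOSL1 was not matched among the promoter sequences.

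In the GRCh37 build (hg19) used for the counts, by the GENCODE annotation, FOS lies at chr14:75745529-75748933, FOSL1 at chr11:65659520-65668044, FOSL2 at chr2:28615315-28640184, JUN at chr1:59242517-59249720, EGR1 at chr5:137801168-137804992 and ATF3 at chr1:212738676-212794119. The other 4 lie on chromosome 19, IER2 at chr19:13261225-13265725, JUNB at chr19:12902300-12904129, JUND at chr19:18390504-18392432 and FOSB at chr19:45971253-45978437. Each count is of the whole gene.

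The genes spanned a wide range of abundance. Per kilobase of merged exon, the mean level in DMSO was highest for JUND at 114 CPM per kb, followed by JUNB at 79.3, IER2 at 59.4, EGR1 at 36.6, JUN at 15.1, FOSL2 at 8.34, ATF3 at 4.98, FOS at 2.25, FOSL1 at 0.480 and FOSB at 0.0790 CPM per kb. No neighbours in this order overlapped among the DMSO samples. In PB and in PB+RA, JUNB stood above JUND in the order (103 against 94.4 CPM per kb in PB, where the samples overlapped, and 119 against 94.3 CPM per kb in PB+RA, where they did not). FOS also moved above ATF3 in both of these groups, at 3.29 against 2.72 and at 4.64 against 4.18 CPM per kb, although the samples of the pair overlapped each time. JUNB and IER2 overlapped in RA, FOSL1 and FOSB in PB, and IER2 and EGR1 in PB+RA. All further levels are CPM of the whole gene and are compared only within a gene, with 3 exceptions. These are the sums and shares of family reads, the ratio of JUNB to JUND reads, and HOOK2 beside JUNB.

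**Figure D1:**
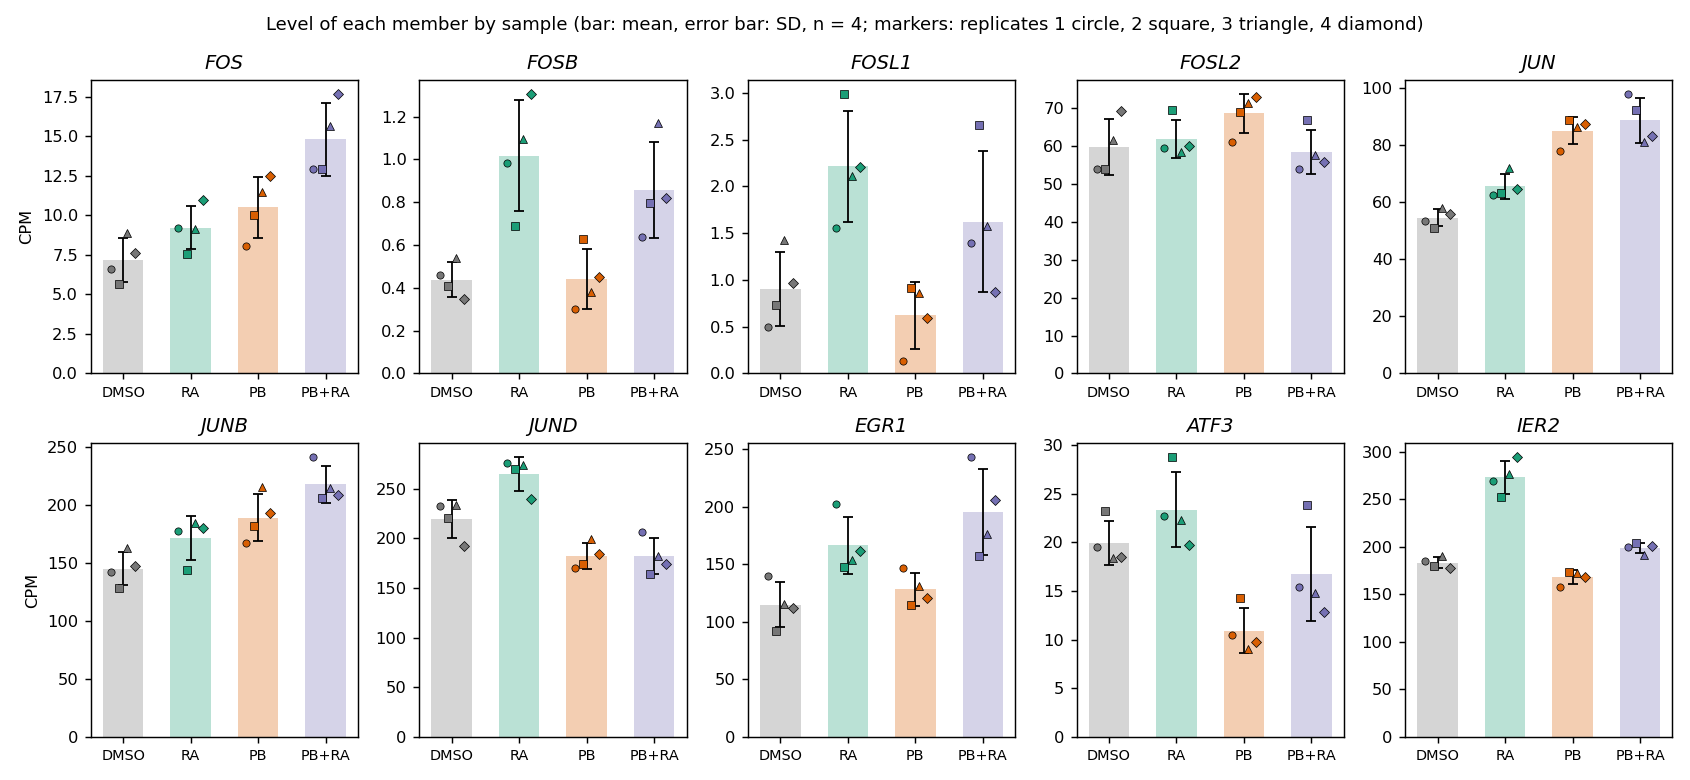
Level of each of the 10 genes in CPM (y axis, from 0, own scale per panel) in the 4 groups (x axis). Bars are means, error bars SD over 4 samples, and markers the single samples by replicate number. FOS climbs from a mean of 7.18 CPM in DMSO to 14.8 CPM in PB+RA, while IER2 peaks with RA alone at a mean of 273 CPM.

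PB raised FOS and JUN and lowered ATF3. RA raised FOSB, FOSL1, EGR1 and IER2, and no member fell. PB+RA raised FOS, FOSB, JUN, JUNB and EGR1, and again none fell. A gene was called here at an adjusted p below 0.05 by edgeR's quasi-likelihood test over all tested genes and a log2 fold change beyond 0.5 in either direction, and "rose" and "fell" are used only of such genes. For PB, 2 of 10 were called higher beside 16.9% of all tested genes, and 1 lower beside 11.3%. For RA, 4 of 10 were called higher beside 10.8% of tested genes, and 0 lower beside 2.54%. For PB+RA, 5 of 10 were called higher beside 24% of tested genes, and 0 lower beside 17.9%. Without the minimum on the fold change, the adjusted p alone was below 0.05 for 5 members with PB, 6 with RA and 6 with PB+RA, beside 53.6%, 35.2% and 66.1% of tested genes. The median log2 fold change of the 10 was 0.07 with PB, 0.30 with RA and 0.61 with PB+RA, beside 0.03, 0.01 and 0.04 over all tested genes. The CPM of the treated and DMSO samples did not overlap for 4 members with PB (2 higher, 2 lower), 6 with RA and 6 with PB+RA (0 of them lower), beside 49.9%, 37.2% and 58.2% of tested genes. These 3 comparisons share the DMSO samples and are therefore not independent of each other.

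Setting the combination against each single agent, adding RA to PB raised FOSB, FOSL1, EGR1 and ATF3, which is 4 of 10 beside 9.02% of tested genes, and 0 of 10 fell beside 7.27%. Adding PB to RA raised FOS, 1 of 10 beside 14.9% of tested genes, and lowered JUND and ATF3, 2 of 10 beside 14.1%. The median log2 fold change of the members was 0.34 against PB and -0.18 against RA, and the medians of all tested genes were -0.01 and 0.00. For the interaction, the log2 fold change of PB+RA minus the sum of those of PB and RA, 0 of 10 were called beside 3.44% of tested genes. IER2 alone had an adjusted p below 0.05 there, and its value was under the fold minimum.

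**Figure D2:**
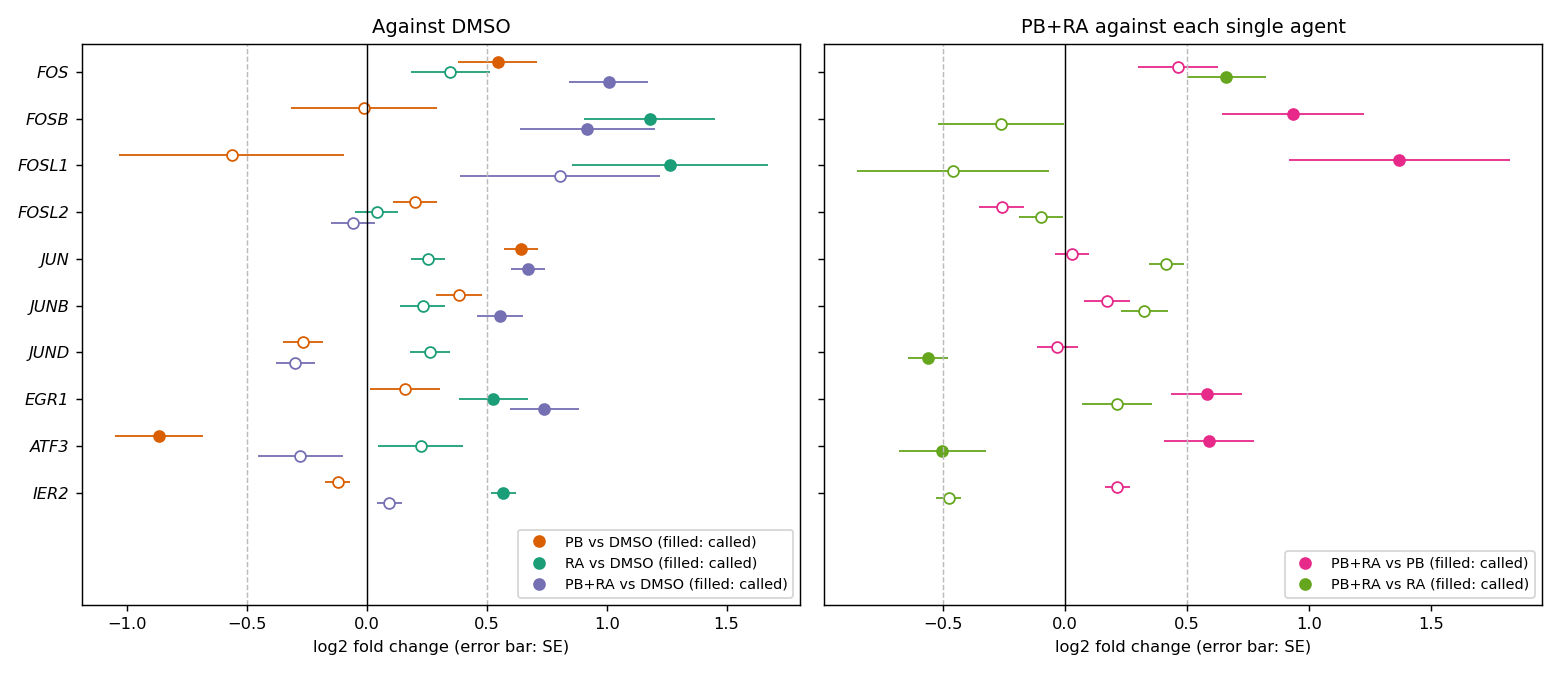
Log2 fold change of each gene (x axis) with its SE (bars), against DMSO on the left and of PB+RA against each single agent on the right. Filled points passed both the adjusted p and the fold minimum, and dashed lines mark log2 values of -0.5 and 0.5. The points of FOS lie to the right of 0 in all 5 comparisons, and those of ATF3 range from -0.87 with PB to 0.59 for PB+RA against PB.

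Among the FOS family, FOS itself, the founding inducible partner of JUN, was at 6.63, 5.63, 8.89 and 7.59 CPM in DMSO replicates 1 to 4 and at 9.21, 7.56, 9.16 and 10.9 CPM in RA. It was at 8.07, 10.0, 11.5 and 12.4 CPM in PB and at 12.9, 12.9, 15.6 and 17.7 CPM in PB+RA. Every PB+RA sample was above every sample of the other 3 groups, whereas 1 PB sample lay inside the DMSO range and the RA and DMSO ranges overlapped. FOS rose with PB by 0.55 ± 0.17 (adjusted p = 0.0106) on the log2 scale and with PB+RA by 1.01 ± 0.16 (adjusted p = 4.36e-05), a 2.01-fold increase. The value with RA was 0.35 ± 0.17 (adjusted p = 0.114), which did not pass. PB+RA exceeded RA by 0.66 ± 0.16 (adjusted p = 0.00257) and stood at 0.46 ± 0.16 (adjusted p = 0.0336) against PB, under the fold minimum. When DMSO replicate 2 was left out the PB value was 0.45 and no longer called, and likewise for PB replicate 3 (0.47) and PB replicate 4 (0.45). The value against PB became a call without PB replicate 3 (0.51) or 4 (0.56), or PB+RA replicate 1 (0.52) or 2 (0.52).

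FOSB and FOSL1 (FRA1, a FOS protein associated with mesenchymal and motile states) were the rarest members and rose with RA. FOSB was at 0.461, 0.408, 0.538 and 0.348 CPM in DMSO, 0.983, 0.687, 1.09 and 1.31 CPM in RA, 0.300, 0.629, 0.380 and 0.453 CPM in PB and 0.636, 0.797, 1.17 and 0.820 CPM in PB+RA, from 7 to 29 counts per sample. Both groups given RA lay above both groups without it, with PB+RA replicate 1 only just above PB replicate 2. FOSB rose by 1.18 ± 0.27 (adjusted p = 0.00332) with RA, by 0.92 ± 0.28 (adjusted p = 0.00835) with PB+RA and by 0.93 ± 0.29 (adjusted p = 0.0185) in PB+RA over PB, and was at -0.01 ± 0.31 (adjusted p = 0.975) with PB alone. The call against PB was lost without PB replicate 1 (0.78) or PB+RA replicate 3 (0.74).

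FOSL1 was at 0.496, 0.734, 1.42 and 0.968 CPM in DMSO and at 1.56, 2.99, 2.11 and 2.21 CPM in RA. It was at 0.129, 0.919, 0.856 and 0.588 CPM in PB and at 1.39, 2.66, 1.58 and 0.871 CPM in PB+RA, on 3 to 74 counts per sample. Every RA sample was above every DMSO and PB sample, and PB replicate 1 was the lowest of all. FOSL1 rose by 1.26 ± 0.41 (adjusted p = 0.0239) with RA and by 1.37 ± 0.45 (adjusted p = 0.0251) in PB+RA over PB. PB+RA against DMSO gave 0.81 ± 0.42 (adjusted p = 0.100), but with the replicate number as a block the value was 0.79 (adjusted p = 0.0208) and passed. The call with RA was lost without DMSO replicate 1 (1.06), DMSO replicate 2 (1.18) or RA replicate 2 (1.09), and that over PB without PB replicate 1 (1.01), PB replicate 4 (1.35) or PB+RA replicate 2 (1.04). Against DMSO, the PB+RA value passed when DMSO replicate 3 (1.13) or PB+RA replicate 4 (1.00) was left out, and dropped to 0.45 without PB+RA replicate 2. Replicates 1 and 2 alone gave 1.69 and replicates 3 and 4 alone -0.02 for that comparison. Of the 7 mesenchymal markers, 4 were called higher and 0 lower with RA, 1 higher and 4 lower with PB, and 1 higher and 2 lower with PB+RA, each against DMSO, and their part in the FOSB and FOSL1 values was not tested. The shares of all tested genes called higher and lower were 10.8% and 2.54% with RA, 16.9% and 11.3% with PB, and 24% and 17.9% with PB+RA.

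FOSL2 (FRA2), the abundant and less inducible member of the family, was at 54.0, 54.0, 61.7 and 69.3 CPM in DMSO, 59.4, 69.4, 58.4 and 60.1 CPM in RA, 61.1, 69.0, 71.3 and 72.8 CPM in PB and 53.8, 66.9, 57.6 and 55.6 CPM in PB+RA. The 4 groups overlapped. Its log2 fold changes against DMSO were 0.20 ± 0.09 (adjusted p = 0.0735) with PB, 0.04 ± 0.09 (adjusted p = 0.762) with RA and -0.06 ± 0.09 (adjusted p = 0.587) with PB+RA, none of which passed, and PB+RA against PB was -0.26 ± 0.09 (adjusted p = 0.0343), under the fold minimum. FOSL2 held most of the FOS family reads, 87.6% ± 1.7 (SD, n = 4) of their summed CPM in DMSO, 85.7% ± 1.5 in PB, 83.2% ± 2.3 in RA and 77.1% ± 2.7 in PB+RA. The summed CPM of the family was 68.3 ± 8.5 in DMSO and 75.8 ± 6.0 in PB+RA, and the samples of these groups overlapped. Shares and sums are of reads and were not scaled for length, so longer genes weigh more. Merged exon is 7162 bases for FOSL2, 5553 for FOSB, 3186 for FOS and 1887 for FOSL1.

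In the JUN family, JUN, which activates its own gene through an AP-1-like element, was at 53.3, 51.0, 57.9 and 56.0 CPM in DMSO, 62.5, 63.2, 71.9 and 64.5 CPM in RA, 77.9, 88.7, 86.2 and 87.2 CPM in PB and 97.9, 92.3, 80.9 and 83.0 CPM in PB+RA. The groups stepped up without overlap from DMSO to RA to PB, while PB and PB+RA overlapped. JUN rose by 0.64 ± 0.07 (adjusted p = 1.37e-06) in response to PB and by 0.67 ± 0.07 (adjusted p = 3.62e-07) in PB+RA, close to 1.56-fold and 1.59-fold. With RA it passed the adjusted p but not the fold minimum, at 0.26 ± 0.07 (adjusted p = 0.0108), and the same was true of PB+RA over RA, at 0.42 ± 0.07 (adjusted p = 0.000112). PB+RA against PB was 0.03 ± 0.07 (adjusted p = 0.774).

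JUNB, a JUN protein that often restrains JUN-driven proliferation, was at 142, 128, 163 and 148 CPM in DMSO, 178, 144, 184 and 179.8 CPM in RA, 167, 181, 215 and 193 CPM in PB and 241, 206, 215 and 209 CPM in PB+RA. Both PB groups lay above all DMSO samples, and the RA samples overlapped with DMSO through the low RA replicate 2. JUNB rose with PB+RA by 0.56 ± 0.10 (adjusted p = 7.87e-05), while PB gave 0.38 ± 0.10 (adjusted p = 0.00292), under the fold minimum, and RA 0.23 ± 0.10 (adjusted p = 0.0711). PB+RA over RA was 0.33 ± 0.10 (adjusted p = 0.00875), also under the minimum. The PB+RA call was lost without PB+RA replicate 1 (0.48). JUNB shares 259 bases of exon with HOOK2 on the opposite strand, whose mean was 26.1 CPM beside 181 CPM for JUNB.

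JUND, the member typical of resting cells, was at 232, 220.3, 234 and 192 CPM in DMSO and 276, 270.3, 274 and 239.6 CPM in RA. It was at 171, 175, 199.7 and 184 CPM in PB and 207, 165, 183 and 174 CPM in PB+RA. All RA samples were above all others, and the ranges of PB and PB+RA overlapped with that of DMSO at its lowest sample. Against DMSO the log2 fold changes were -0.27 ± 0.08 (adjusted p = 0.0114) with PB, 0.26 ± 0.08 (adjusted p = 0.0204) with RA and -0.30 ± 0.08 (adjusted p = 0.00433) with PB+RA, each past the adjusted p and under the fold minimum. JUND fell by 0.56 ± 0.08 on the log2 scale (adjusted p = 2.50e-05) in PB+RA against RA.

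The ratio of JUNB to JUND reads was 0.665 ± 0.085 (SD, n = 4) in DMSO and 0.650 ± 0.091 in RA, and 1.04 ± 0.04 in PB and 1.20 ± 0.04 in PB+RA. The samples ran from 0.581 to 0.769 in DMSO, 0.979 to 1.08 in PB, 0.532 to 0.751 in RA and 1.17 to 1.25 in PB+RA, so that every sample with PB was above every sample without it. JUND made up 52.4% ± 3.0 of the summed JUN family CPM in DMSO, 39.9% ± 0.8 in PB, 52.8% ± 3.0 in RA and 37.2% ± 1.2 in PB+RA. The sum itself was 419 ± 28 CPM in DMSO, 456 ± 36 in PB, 502 ± 26 in RA and 488 ± 39 in PB+RA. These values are of reads and were not scaled for length. Merged exon is 3624 bases for JUN, 1830 for JUNB and 1929 for JUND. The ratio was chosen after its values were seen and is given without a test.

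**Figure D3:**
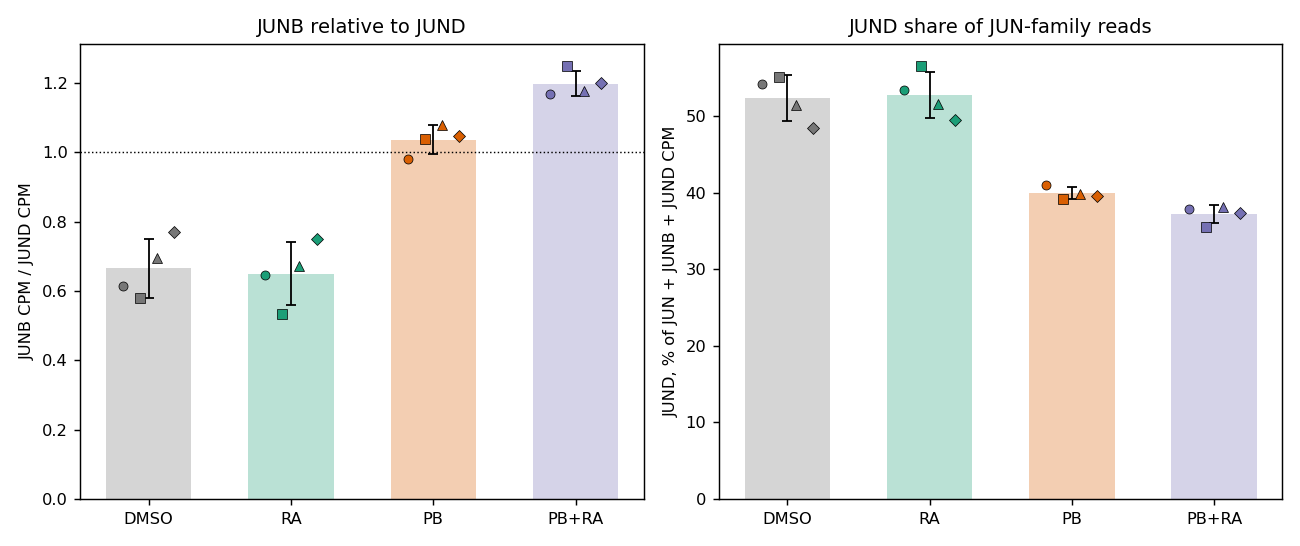
Left, JUNB CPM divided by JUND CPM in each sample, with the dotted line at equal reads. Right, JUND as a percentage of the summed CPM of JUN, JUNB and JUND. Bars are means, error bars SD over 4 samples, and both axes start at 0. The 8 samples with PB have ratios from 0.979 to 1.25 and the 8 without it from 0.532 to 0.769.

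Of the remaining immediate early factors, EGR1, which links mitogen signals to growth and differentiation genes, was at 139, 92.1, 116 and 112 CPM in DMSO and at 203, 147, 154 and 162 CPM in RA. It was at 147, 114, 131 and 120.3 CPM in PB and at 243, 157, 177 and 206 CPM in PB+RA. Both groups given RA lay above all DMSO and PB samples, narrowly so for RA replicate 2 beside PB replicate 1, with overlap between RA and PB+RA and between DMSO and PB. EGR1 rose by 0.53 ± 0.15 (adjusted p = 0.0109) with RA, by 0.74 ± 0.15 (adjusted p = 0.000336) with PB+RA and by 0.58 ± 0.15 (adjusted p = 0.00552) in PB+RA over PB, and PB alone gave 0.16 ± 0.15 (adjusted p = 0.377). The RA call was lost without DMSO replicate 2 (0.44) or RA replicate 1 (0.41), and the call over PB without PB+RA replicate 1 (0.46).

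The spread of EGR1 between replicates followed the replicate number. Replicate 1 was the highest and replicate 2 the lowest sample of EGR1 in all 4 groups, and replicate 2 was the highest sample of ATF3 in all 4 groups. The biological coefficient of variation (edgeR's gene-wise estimate of spread) was 14.4% for EGR1, above 95.2% of the 500 tested genes closest to it in abundance. It was 17.7% for ATF3 (86.6% of such genes), 37.6% for FOSL1 (91.4%), 16% for FOS (79.6%) and 9.85% for JUNB (81.8%). IER2 was the steadiest member at 5.90%, above 28.4% of genes of like abundance, and the remaining 4 lay between 7.54% for JUN and 16.7% for FOSB.

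**Figure D4:**
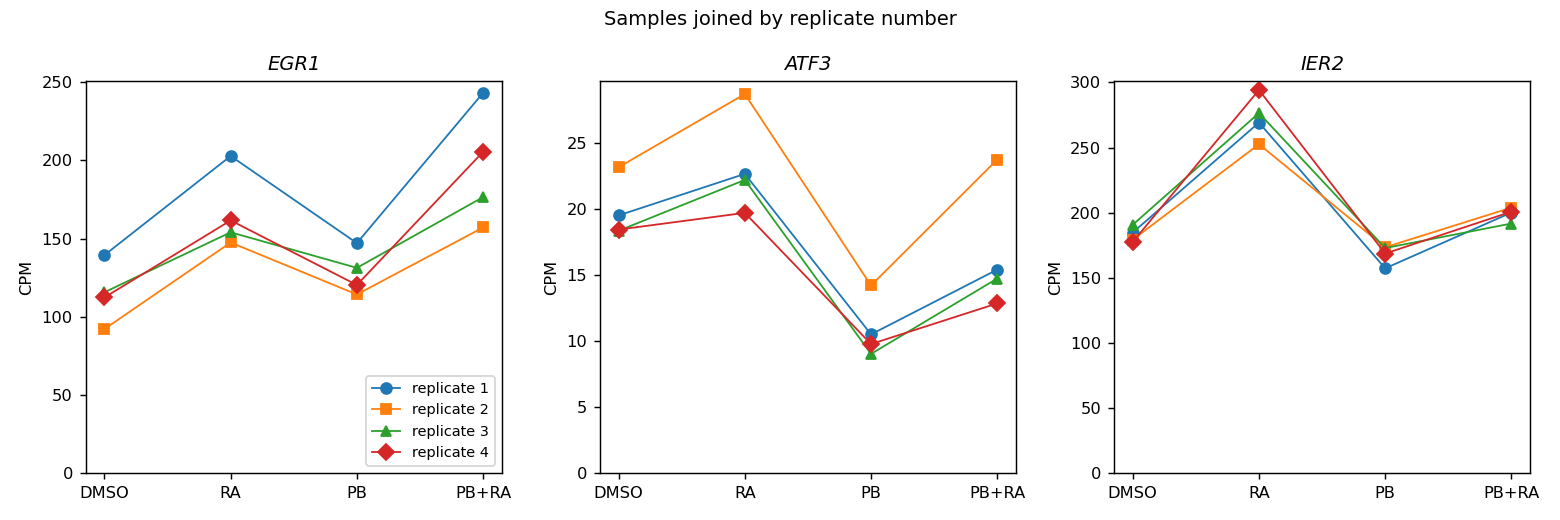
CPM of EGR1, ATF3 and IER2 (y axes, from 0) in the 4 groups, with samples of the same replicate number joined. The line of EGR1 replicate 1 runs above the others and that of ATF3 replicate 2 likewise, whereas the 4 lines of IER2 lie together and peak at RA.

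IER2 was at 185, 179, 191 and 178 CPM in DMSO and at 269, 253, 276 and 294 CPM in RA. It was at 157, 173, 173 and 169 CPM in PB and at 200.1, 204, 192 and 201 CPM in PB+RA. No pair of groups overlapped, with PB the lowest and RA the highest. IER2 rose by 0.57 ± 0.05 (adjusted p = 8.50e-07) with RA, a 1.48-fold increase, while PB gave -0.12 ± 0.05 (adjusted p = 0.0555) and PB+RA 0.09 ± 0.05 (adjusted p = 0.123) against DMSO. PB+RA was at -0.48 ± 0.05 (adjusted p = 8.98e-07) against RA and at 0.22 ± 0.05 (adjusted p = 0.00371) against PB, both past the adjusted p and under the fold minimum. The interaction was -0.35 ± 0.07 (adjusted p = 0.00950), so that the level with both agents was below the sum of the single changes, and no other member had an interaction with an adjusted p under 0.179. The value against RA passed the fold minimum without RA replicate 2 (-0.51) or PB+RA replicate 2 (-0.50). Models of 2 non-coding RNAs on the opposite strand overlap 946 and 662 bases of IER2 exon and had no symbol of their own in the table.

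ATF3 was at 19.5, 23.2, 18.4 and 18.5 CPM in DMSO and at 22.7, 28.7, 22.2 and 19.7 CPM in RA. It was at 10.5, 14.2, 9.03 and 9.78 CPM in PB and at 15.4, 23.8, 14.7 and 12.9 CPM in PB+RA. The PB samples lay below all DMSO and RA samples, and PB+RA overlapped with each of the other groups. ATF3 fell by 0.87 ± 0.18 on the log2 scale with PB (adjusted p = 0.000827), to 0.547 of the DMSO level, and this call held without any single sample. RA gave 0.22 ± 0.18 (adjusted p = 0.352) and PB+RA -0.28 ± 0.18 (adjusted p = 0.183), the latter called without PB+RA replicate 2 (-0.52). PB+RA was 0.59 ± 0.18 (adjusted p = 0.0191) above PB and at -0.50 ± 0.18 (adjusted p = 0.0263) against RA. The call over PB was lost without PB replicate 3 (0.52), PB replicate 4 (0.54) or PB+RA replicate 2 (0.37). The call against RA sat at the fold minimum and was lost without DMSO replicate 4 (-0.49), RA replicate 2 (-0.39) or PB+RA replicate 1 (-0.48), 3 (-0.45) or 4 (-0.39).

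Compared within replicate numbers, several genes whose groups overlapped differed in the same direction in every pair. ATF3 in PB+RA was above PB and below RA in 4 of 4 pairs, with replicate 2 the highest in each group. EGR1 and FOSL2 with PB were above DMSO in 4 of 4 pairs, as were FOS, JUNB and ATF3 with RA. JUND was below DMSO in 4 of 4 pairs with PB and with PB+RA. These were picked for their uniform direction and are not all such cases. The share of all tested genes with a uniform direction was not counted, and the pairs were not tested. EGR1 and FOSL2 with PB, and FOS, JUNB and ATF3 with RA, did not reach an adjusted p below 0.05 in the main fit. Within the sets of replicates 1 and 2 and of replicates 3 and 4, each of the 19 called values kept its sign. The calls were made on these same samples, so a kept sign is not independent of the call. Several were no longer called within a set, among them FOSB, FOSL1 and EGR1 with RA in replicates 1 and 2. JUN with PB gave 0.67 and 0.57, JUN with PB+RA 0.85 and 0.46, JUNB with PB+RA 0.71 and 0.38, FOSL1 with RA 1.88 and 0.78, and FOSL1 in PB+RA over PB 1.97 and 0.77, the first value being that of replicates 1 and 2.

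The genes outside the members that lay nearest to them over the 16 samples were ranked on these same samples, so a near gene is found by the ranking itself. Likeness was the root mean square difference of log2 CPM after each gene was centred on its own mean, so smaller is closer, over the 9994 tested genes whose mean reached 10 CPM. The closest to FOS were IFI27L2 (0.121) and SFXN3 (0.132), to JUN DMPK (0.0795) and CAMKK2 (0.0841), to JUNB GPR27 (0.0851), and to JUND ZNF358 (0.0952) and ZNF48 (0.101). IER2 was closest to SMS (0.0823) and TTYH3 (0.100), EGR1 to ZFP90 (0.156) and RASA1 (0.160), and ATF3 to INSIG1 (0.166) and NANOS1 (0.173). The values of the 2 rare genes were larger, with FBLIM1 (0.276) and QSOX1 (0.280) nearest to FOSB and ETS1 (0.521) and PLAUR (0.544) nearest to FOSL1. The measure grows with a member's own spread over the samples. As a root mean square this was 0.242 for JUNB, 0.292 for JUN, 0.349 for EGR1, 0.476 for ATF3, 0.556 for FOSB and 0.941 for FOSL1.

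Of 16 further FOS, JUN, ATF and MAF type zipper genes 14 were tested, and against DMSO 0 rose and 1 fell with PB, 4 rose and 0 fell with RA, and 3 rose and 0 fell with PB+RA. The medians of the list were 0.19, 0.34 and 0.32 on the log2 scale. MAFK, a small MAF protein, was at 7.03 ± 1.7 CPM (SD, n = 4) in DMSO, 6.44 ± 0.63 in PB, 25.4 ± 5.0 in RA and 24.9 ± 1.5 in PB+RA, a log2 rise of 1.85 ± 0.15 with RA and 1.80 ± 0.15 with PB+RA. MAFF, its close relative, moved in opposite directions with the single agents, falling by 0.97 with PB and rising by 0.65 ± 0.11 with RA, and was at 0.04 ± 0.11 with both. NFE2L1, which drives proteasome genes, rose with PB+RA by 0.54 ± 0.06.

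Other immediate early genes changed in both directions. Of 24 listed genes 21 were tested, and 6 rose and 3 fell with PB, 8 rose and 1 fell with RA, and 9 rose and 4 fell with PB+RA, with list medians of 0.03, 0.14 and 0.56 on the log2 scale. BTG2, an antiproliferative gene, was at 20.5 ± 1.5 CPM (SD, n = 4) in DMSO, 58.6 ± 4.5 in PB, 31.5 ± 1.5 in RA and 90.1 ± 7.2 in PB+RA, log2 rises of 0.61 ± 0.07, 1.51 ± 0.07 and 2.11 ± 0.07 for RA, PB and PB+RA. The orphan receptor NR4A2 rose from 0.435 ± 0.055 CPM in DMSO to 4.83 ± 0.31 CPM in PB+RA, a log2 change of 3.43 ± 0.22. Its relative NR4A1 fell by 1.31 on the log2 scale with PB+RA and by 0.93 with PB, and was at -0.14 ± 0.07 with RA.

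**Figure D5:**
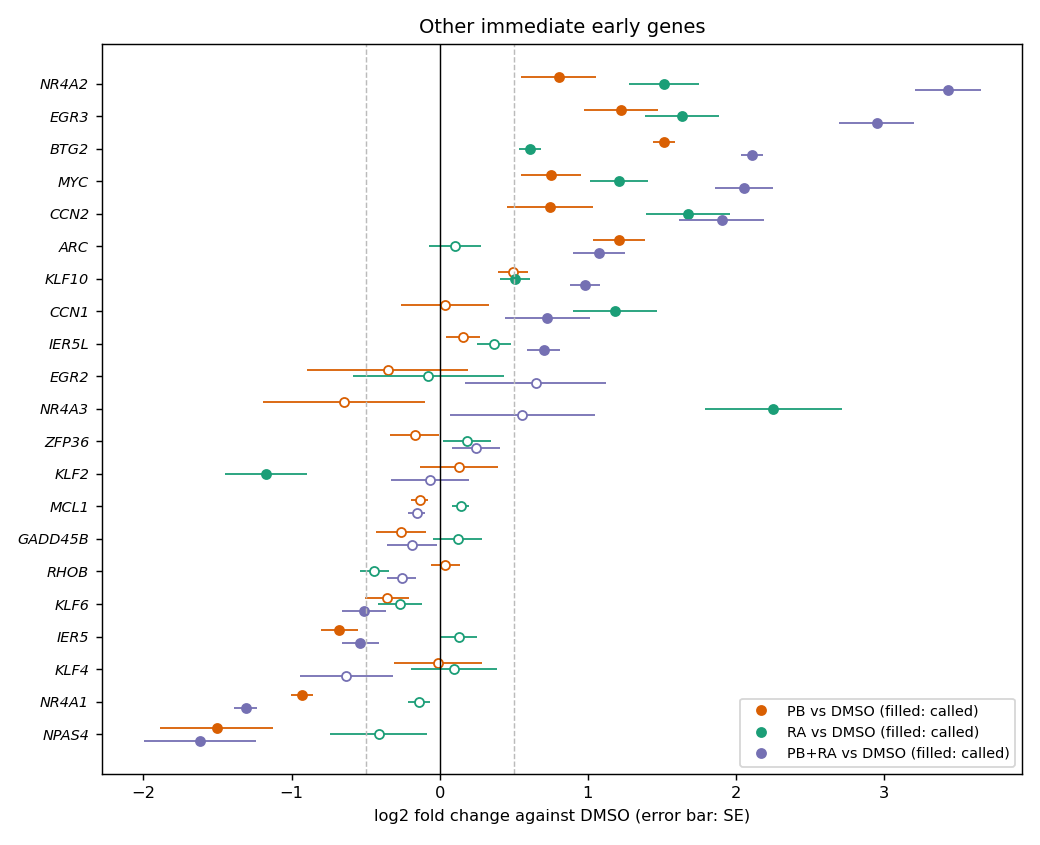
Log2 fold change against DMSO (x axis, bars SE) of the 21 tested immediate early genes outside the 10, ordered by their value with PB+RA. Filled points passed both the adjusted p and the fold minimum. NR4A2 stands at the top with 3.43 in PB+RA, and NR4A1 is among the lowest with -1.31.

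Upstream of AP-1, 9 serum response factor, ternary complex factor and CREB genes were tested, of which 1 fell with PB, 1 rose with RA and 1 fell with PB+RA. ELK4, a ternary complex factor, was at -0.74 ± 0.08 in PB and -0.92 ± 0.08 in PB+RA on the log2 scale, and CREM, a CREB relative, rose by 0.74 ± 0.07 with RA. Among 15 JNK, ERK and p38 kinase genes, 3 rose and 2 fell with PB, 1 rose with RA, and 4 rose and 1 fell with PB+RA. MAPK10 (JNK3, the neuronal form) was at 12.7 ± 1.1 CPM in DMSO and 40.9 ± 5.6 in PB+RA. MAPK9 (JNK2) was at 113 ± 2.6 and 60.2 ± 5.1 CPM, and the log2 changes were 1.66 ± 0.10 for MAPK10 and -0.94 ± 0.06 for MAPK9. MAPK11, a p38 gene, changed by 0.58 ± 0.08 in PB and 0.75 ± 0.08 in PB+RA. The medians of these lists with PB, RA and PB+RA were -0.21, 0.13 and -0.09 for the factors and -0.14, 0.07 and -0.02 for the kinases. Those of all tested genes were 0.03, 0.01 and 0.04.

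Of 15 textbook AP-1 target genes 11 were tested, and 2 rose and 4 fell with PB, 2 rose and 1 fell with RA, and 3 rose and 1 fell with PB+RA, with list medians of -0.25, 0.21 and 0.17 on the log2 scale. CCND1, the cyclin that partners CDK4 and CDK6, rose with PB by 0.81 ± 0.16 and with PB+RA by 0.62 ± 0.16. VEGFA, an angiogenic factor, rose with PB+RA by 0.57 ± 0.05. Neither of the 2 NAB genes, whose products repress EGR1 activity, was called in any comparison. Of 10 heat shock and dissociation stress genes, 0 were called with PB or RA and 1 fell with PB+RA, HSPD1, a mitochondrial chaperone, by 0.51. The list medians were -0.02, -0.09 and -0.17, and the shares and medians of all tested genes are those given for the target genes.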

How the data were processed

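RNA-seq was measured in 16 samples, 4 replicates of each of 4 groups, with groups and replicate numbers taken from the sample titles. Per the labels and the study's methods, polyadenylated RNA was made into directional paired-end libraries, trimmed with Trim Galore 0.6.4, aligned to hg19 with STAR and counted per gene by STAR. The submitters' processing notes give STAR 2.6.1d, and the methods list another release. The deposited counts are raw, and the deposited CPM were made by the authors by scaling each sample's counts to its total. Deposited CPM and counts divided by totals differed by at most 5e-12. The strand column and annotation release behind the counts were not given in the sources used here, so genes that overlap on opposite strands are uncertain. A further deposited table holds the authors' log2 fold changes and p-values from DESeq2 1.32.0 and was not used.

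Counts were tested in R 4.3.3 with edgeR 4.0.16 (filterByExpr, TMM factors from 0.983 to 1.02, 1 quasi-likelihood fit over the 16 samples with a coefficient per group). A call needed a Benjamini-Hochberg adjusted p below 0.05 over 15415 genes and an absolute log2 fold change above 0.5. Each error beside a log2 fold change is its standard error. Alternatives were other size factors, filters, tools (limma 3.58.1, DESeq2 1.42.0), fold minimums and sample sets, a replicate block, and a correction for GC content and length, which were known for 95.2% of tested genes. The closing section gives their effect.

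Depth was 19515779 to 31620821 counts, and the pairs of replicates all differed by more than sampling noise (lowest chi-square per degree of freedom 3.11). By the study's own definition, its biological replicates are independent cultures, each from its own passage. Samples of the same replicate number deviated together (Pearson's r across genes of 0.330 to 0.573 over 24 pairs, against -0.492 to 0.447 over the 72 pairs of unlike number). These ranges overlapped. The numbers were used as pairs only in the replicate block and in comparisons within replicate numbers, and the main fit had no block. For the interaction, the block gave 190 genes called higher and 981 lower, against 64 and 466 in the main fit.

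The members, gene lists, motifs and tests were chosen with earlier results of these data known. All 10 members are named. From each list, genes called against DMSO with a mean of at least 1 CPM are named, at most 3 by smallest adjusted p. For each called member, the 2 genes most alike in pattern (log2 CPM with a prior count of 2) are named. Some genes that these rules name are not reported here. Gene positions are from GENCODE lifted to GRCh37, and upstream sequences from RefSeq, GRCh38.p14, where 9 of 10 members matched.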

Additional observations from a re-analysis of the deposited data

Results flagged for a closer look

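In the RA group, 1 sample stood apart from the other 3 for 3 genes, judged by its gap to the nearest sample divided by the range of the group and set against Dixon's 95% critical value for 4 samples. For FOSL2 the ratio was 0.843, with RA replicate 2 high at 69.4 CPM. For JUNB it was 0.839, with RA replicate 2 low at 144 CPM. For JUND it was 0.843, with RA replicate 4 low at 240 CPM. Of the 40 groups examined (10 genes in 4 groups), chance flags about 1 in 20, and 3 were flagged. IER2 was also taken up because the effect of RA on it differed with and without PB, by -0.35 ± 0.07 on the log2 scale (adjusted p = 0.00950, edgeR's quasi-likelihood test of the interaction, under the fold minimum), with all 4 RA samples above all DMSO samples and all 4 PB+RA samples above all PB samples.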

How the results depend on the processing

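Counts of called members in the order PB, RA and PB+RA against DMSO, PB+RA against PB, PB+RA against RA and the interaction were 3, 4, 5, 4, 3 and 0. With no fold minimum they were 5, 6, 6, 7, 6 and 1, and with a log2 minimum of 1 they were 0, 2, 1, 1, 0 and 0. The shares of all tested genes in the same order were 53.6%, 35.2%, 66.1%, 38.1%, 54.4% and 5.29% with no minimum and 10.9%, 5.93%, 20.2%, 6.86%, 11.5% and 1.1% with a minimum of 1. Replicates 1 and 2 alone gave 1 for RA (IER2), 3 for PB+RA (FOS, JUN and JUNB) and 1 against PB. That 1 was FOS (0.51), not called in the main fit, and the main calls of FOSB, FOSL1, EGR1 and ATF3 against PB were lost. Replicates 3 and 4 alone gave 3 for PB+RA and 5 against RA. Fitting only the 2 groups compared gave 2 against PB (FOSL1 and ATF3 were lost). Leaving out 1 sample at a time, RA ran from 2 (without DMSO replicate 2) to 4 and PB+RA against PB from 2 (without PB replicate 1) to 4. The stricter filter removed FOSB from the test. EGR1 with RA was lost with no filter on low counts (0.49), and ATF3 against RA was at -0.49 and lost with other size factors, with either filter choice, with DESeq2 and with the GC and length correction. The replicate block changed the call of FOSL1 with PB+RA against DMSO and no other. Of 60 pairs of gene and comparison, 18 kept both their call and their sign in every alternative, the log2 minimum of 1 included. FOS with PB+RA against DMSO was the only called value among them, and the rest were pairs that were never called.

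The sign changed only for values that were not called. All alternatives reuse the samples on which the calls were made, so a kept sign is not independent of the call. With the GC and length correction, FOSL2 with RA was -0.0132 (-0.0125 with the replicate block too) and JUND against PB 0.0604 (0.0602). Replicates 1 and 2 alone gave FOSB with PB 0.0601, FOSL2 with PB+RA 0.14, JUND against PB 0.10 and the JUNB interaction 0.11. Replicates 3 and 4 alone gave FOSL2 with RA -0.20, FOSL1 with PB+RA -0.0165, JUN against PB -0.11 and the FOSL1 interaction -0.00406. Leaving out 1 sample, FOSB with PB ran from -0.23 to 0.14, FOSL2 with RA from -0.0189 to 0.108 and with PB+RA from -0.153 to 0.0194, JUN against PB from -0.0225 to 0.0709, JUND against PB from -0.0983 to 0.0235, and the interaction from -0.0627 to 0.178 for EGR1, -0.00913 to 0.216 for FOS, -0.25 to 0.35 for FOSL1 and -0.135 to 0.0255 for JUNB. Some of these settings remove samples or genes, and the cause of the shifts was not tested. Counts per sample were lowest for FOSB (7 to 29) and FOSL1 (3 to 74).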
